A study of Homo sapiens with 9 samples.

Results

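CD44, the ezrin-radixin-moesin (ERM) linkers and the hyaluronan enzymes were described across 3 groups of prostate cancer cells, as the 8 of 28216 genes in the deposited count table that carry the symbols CD44, EZR, MSN, RDX, NF2, HAS2, HAS3 and HMMR-AS1. Poly(A) RNA was sequenced from untreated PC3 cells (n = 3 libraries) and from LNCaP cells of the clone FCG after 48 h with 10 nM DHT (dihydrotestosterone, n = 3) or with the vehicle, 0.01% ethanol (n = 3). PC3 is a prostate cancer line established from a bone metastasis and grows without androgen, whereas LNCaP came from a lymph node metastasis and responds to androgen. The labels give no genetic alteration in either line. The LNCaP cells were kept in medium without phenol red and with charcoal-stripped serum before and during the treatment, while PC3 cells grew in F12K medium with serum, so the line and its medium cannot be told apart in any PC3 comparison. The labels do not say whether the libraries of a group came from separate cultures. The study speaks of independent experiments in general and of experimental batches for the sequencing, but does not say which library belongs to which, so the p-values are taken to measure only the spread between libraries.

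CD44 is a transmembrane receptor for hyaluronan, the long sugar polymer of the pericellular matrix. Inside the cell its short tail can bind ezrin, radixin and moesin, which open when a threonine near their end is phosphorylated and then tether membrane proteins to cortical actin. Merlin, the product of NF2, shares the membrane-binding FERM domain but ends differently, and it is known as a growth suppressor that competes for CD44. HAS2 and HAS3 are plasma membrane enzymes that make hyaluronan, and HMMR-AS1 is a non-coding RNA transcribed against HMMR, which encodes another hyaluronan-binding protein.

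The coding ends of the 3 ERM genes and of NF2 are shown to compare the codons around the regulated threonine of the linkers. Each line holds the last 26 codons of the GENCODE 44 canonical transcript, 5′ to 3′, and capitals mark the codon of the regulated threonine, which is codon 567 of 586 in EZR, 558 of 577 in MSN and 564 of 583 in RDX. NF2, with 595 codons, has no codon marked, because the residues KYKTLR around that threonine were searched for and not found in it. Its line does hold a threonine codon (acc) at the same position.
EZR: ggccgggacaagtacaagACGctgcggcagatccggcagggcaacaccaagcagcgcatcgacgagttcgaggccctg
MSN: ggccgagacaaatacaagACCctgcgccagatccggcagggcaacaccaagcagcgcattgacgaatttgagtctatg
RDX: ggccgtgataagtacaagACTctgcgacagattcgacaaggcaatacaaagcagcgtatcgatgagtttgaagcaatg
NF2: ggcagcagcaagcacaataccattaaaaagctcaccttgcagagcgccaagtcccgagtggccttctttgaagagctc

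Over the aligned coding sequence EZR and MSN were identical at 74.93% of positions, EZR and RDX at 70.8%, and MSN and RDX at 72.1%. NF2 was less alike, at 62.3% with RDX to 64.4% with EZR. The longest identical run between any pair was 32 nt (EZR and MSN), shorter than the 74-nt read, so a full read from the coding sequence of one of these genes was not identical to another.

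The CD44 sequence that meets the linkers is given for comparison. This stretch of the cytoplasmic tail is taken from the canonical transcript of 742 codons, and capitals mark codons 673 to 681, the cluster of basic residues next to the membrane that ERM proteins are known to bind.
CD44 tail: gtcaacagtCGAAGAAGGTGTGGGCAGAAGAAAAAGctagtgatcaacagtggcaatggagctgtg

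On GRCh38 the CD44 gene lies on chromosome 11 (35138882 to 35232402, plus strand), EZR on chromosome 6 (158765741 to 158819368, minus strand) and MSN on chromosome X (65588377 to 65741931, plus strand). RDX occupies chromosome 11 from 109864295 to 110296712 on the minus strand, and NF2 chromosome 22 from 29603556 to 29698598 on the plus strand. HAS2 is found on chromosome 8 (121612116 to 121641440, minus strand), overlapped by HAS2-AS1, and HAS3 on chromosome 16 (69105653 to 69118719, plus strand), overlapped by CHTF8 and DERPC on the other strand. Because the counts use strand, these overlaps did not add reads directly to HAS2 or HAS3.

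The libraries held 17397706 to 25640325 reads assigned to genes. Of 7 luminal prostate markers (such as KLK3), all 7 were above 3 CPM (reads scaled to a common library size) in every LNCaP library and 3 in every PC3 library. Their summed level was 9644 to 10451 CPM with DHT, 2828 to 3256 CPM with vehicle and 497 to 851 CPM in PC3, where KLK2 was at 0. All 6 epithelial markers passed 3 CPM in every library. Leukocyte markers (0 of 6 above 3 CPM in any group) summed to at most 1.15 CPM, endothelial markers (1 of 5 in each group) to 6.14 to 18.4 CPM, and fibroblast markers (3 of 7 in PC3 and 1 of 7 in each LNCaP group) to 12.6 to 55.3 CPM. PTPRC was at 0 in both LNCaP groups, and CD3E and CDH5 were at 0 in every library. Library 1 of each LNCaP group stood apart at low levels. This was measured on 188 other genes above 50 CPM in every PC3 library, with a LNCaP mean below 1% of the PC3 mean. Their median reached 0.616% of the level in PC3 in DHT library 1 and 0.327% in vehicle library 1. In the remaining LNCaP libraries it lay between 0.107% and 0.154%.

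CD44, the receptor, was abundant in PC3 and close to the detection limit in LNCaP. In PC3 its level was 342, 385 and 295 CPM (341 ± 45.01, mean ± SD, n = 3). With DHT it was 2.24, 0.839 and 0.655 CPM (from 50, 17 and 13 reads) and with vehicle 0.996, 0.384 and 0.305 CPM (19, 7 and 6 reads). Every PC3 library was far above every LNCaP library. PC3 exceeded DHT-treated LNCaP by a log2 fold change of 8.06 (SE 0.33, adjusted p = 2.10e-07, edgeR quasi-likelihood test), and vehicle-treated LNCaP by 9.26 (SE 0.28, adjusted p = 5.58e-08). As ratios of pooled counts these were 265 (95% exact interval 213 to 334) and 604 (428 to 884). Such intervals cover counting error only. CD44 reached 3 CPM in no LNCaP library and entered both tests through PC3 alone, so its p-values are no independent evidence of a difference. Without DHT library 1 the first difference was 8.84, and without vehicle library 1 the second was 9.97. In bulk RNA, fewer CD44-positive cells and less CD44 RNA per cell cannot be told apart.

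**Figure D1:**
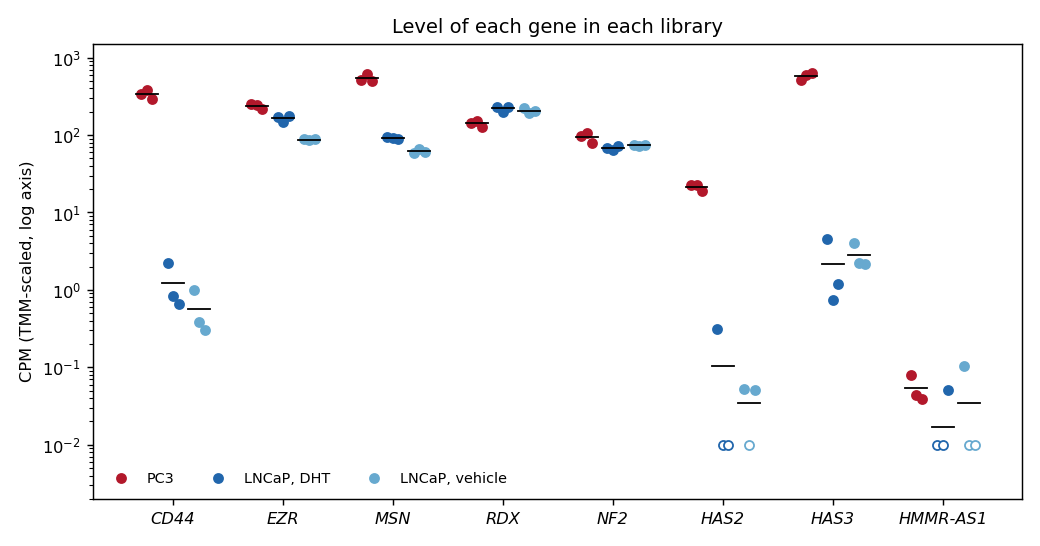
Level of each gene in each library in CPM on a log axis, with 1 point per library, a line at the group mean and open points at the bottom for libraries with 0 counts. CD44, EZR, MSN, NF2, HAS2 and HAS3 lie higher in all 3 PC3 libraries than in any LNCaP library, whereas RDX lies lower. The margin is smallest for NF2, at 80.1 CPM in the lowest PC3 library and 74.9 CPM in the highest LNCaP library. How many of all genes separate the lines in this way was not counted.

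The linkers and merlin were all expressed in both lines, and of these MSN differed most. Moesin was at 518, 620 and 505 CPM in PC3, at 93.3, 92.5 and 87.8 CPM with DHT and at 59.5, 65.6 and 60.3 CPM with vehicle. The 3 groups did not overlap. The log2 difference was 2.59 (SE 0.11, adjusted p = 2.11e-07) between PC3 and DHT-treated LNCaP and 3.17 (SE 0.11, adjusted p = 9.19e-08) between PC3 and vehicle.

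Ezrin, the linker best known from epithelial microvilli, was at 251, 246 and 219 CPM in PC3. Its level was 169, 148 and 174 CPM with DHT and 88.5, 85.3 and 88.8 CPM with vehicle, so that the DHT libraries lay between the others with no overlap. EZR was higher in PC3 than with vehicle by a log2 fold change of 1.47 (SE 0.08, adjusted p = 7.27e-07). Against DHT-treated cells the difference was 0.55 (SE 0.09, adjusted p = 0.000676), below the 2-fold limit.

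Radixin ran the other way. RDX was at 143, 153 and 127 CPM in PC3, 230, 201 and 233 CPM with DHT and 225, 193 and 203 CPM with vehicle. All PC3 libraries were below all LNCaP libraries, while the DHT and vehicle libraries overlapped. The log2 difference was -0.64 (SE 0.10, adjusted p = 0.000418) against DHT and -0.53 (SE 0.10, adjusted p = 0.00131) against vehicle, in both cases under 2-fold.

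Merlin differed least between the lines. NF2 was at 96.0, 107 and 80.1 CPM in PC3, 68.5, 64.6 and 71.2 CPM with DHT and 74.9, 72.7 and 74.3 CPM with vehicle. The difference between PC3 and DHT-treated cells was 0.47 on the log2 scale (SE 0.11, adjusted p = 0.00493), and against vehicle it was 0.38 (SE 0.11, adjusted p = 0.0132).

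The hyaluronan synthases HAS2 and HAS3 were mainly PC3 transcripts in these data. HAS3 was at 521, 597 and 634 CPM in PC3, and at 4.57, 0.740 and 1.21 CPM with DHT and 4.04, 2.20 and 2.13 CPM with vehicle. All LNCaP libraries were below all PC3 libraries by a wide margin. The log2 difference was 8.03 (SE 0.49, adjusted p = 1.56e-06) against DHT and 7.73 (SE 0.23, adjusted p = 5.71e-08) against vehicle. Without DHT library 1 the first of these was 9.24. HAS3 reached 3 CPM in all PC3 libraries but in only 1 library of each LNCaP group, and CD44 and HAS2 in none, so these genes entered the test through PC3 and their p-values are no independent evidence of a difference.

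HAS2 was lower in level than HAS3 in PC3 and near 0 in LNCaP. It had 581, 517 and 480 reads in PC3 (22.9, 22.5 and 19.0 CPM), 7, 0 and 0 reads with DHT, and 1, 0 and 1 reads with vehicle. The pooled ratio was 191 (95% exact interval 92.4 to 476) against DHT and 610 (169 to 5041) against vehicle, with adjusted p = 2.41e-06 and 8.20e-08 in the quasi-likelihood fits. HAS2 entered these fits through its PC3 level alone, so the p-values are no independent evidence of a difference. All 7 reads of the DHT group were in library 1, and without it the group held no HAS2 read.

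In the comparison of PC3 with DHT-treated LNCaP, 7 of the 8 genes passed the expression filter (HMMR-AS1 did not) and 4 were called at an adjusted p under 0.05 and at least 2-fold, all higher in PC3. They were CD44, MSN, HAS2 and HAS3. Over all 12541 genes tested, 46.0% were called in either direction and 24.0% higher in PC3. Against vehicle, 5 were called, EZR in addition, where 43.2% of 12686 genes were called and 22.2% higher in PC3. CD44, HAS2 and HAS3 passed the filter through their PC3 level alone and so were selected in part by their difference, whereas EZR, MSN, RDX and NF2 were above 3 CPM in every library. All 7 tested genes had an adjusted p under 0.05 in both comparisons, 6 of them higher in PC3, where 84.0% of all genes (42.9% higher in PC3) did so against DHT and 83.4% (42.6% higher) against vehicle. The PC3 libraries enter both comparisons and the LNCaP groups enter the treatment comparison as well. The share of all genes whose libraries do not overlap between groups was not computed. A lack of overlap is therefore not read as particular to these genes.

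**Figure D2:**
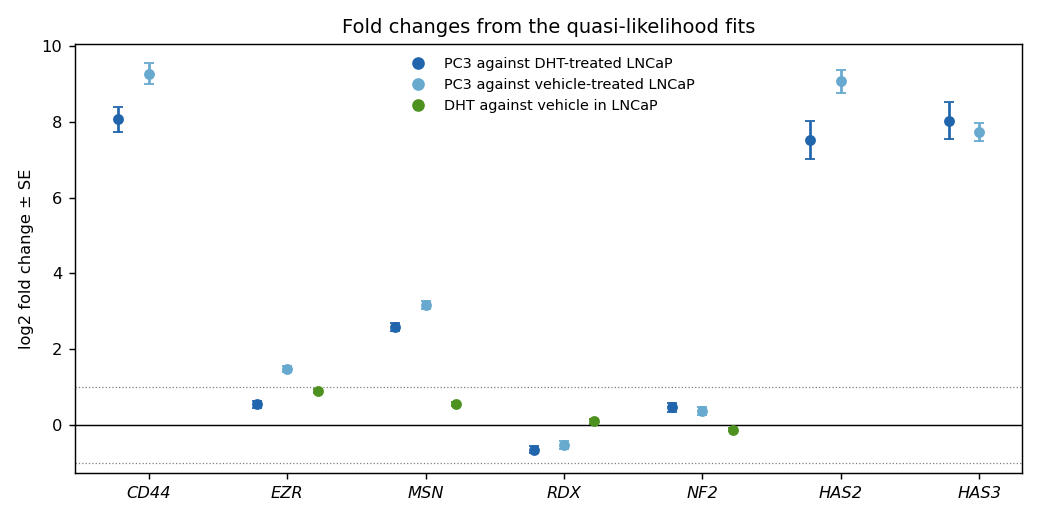
Log2 fold change (± SE) of each tested gene in the 3 comparisons from the quasi-likelihood fits, with 3 libraries per group and dotted lines at 2-fold. CD44, HAS2 and HAS3 lie above 7 in both PC3 comparisons, and EZR and MSN are the genes clearly above 0 in the DHT comparison.

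With DHT the linkers differed from vehicle by less than 2-fold. In LNCaP cells 4 of the 8 genes were tested (EZR, MSN, RDX and NF2), and the others were too low in both groups. edgeR called 0 of the 4 and DESeq2 0, while 3 had an unadjusted p under 0.05. Over all 11697 genes 14.0% were called, 6.54% higher and 7.49% lower with DHT. An adjusted p under 0.05 whatever the fold was found for 74.9% of all genes, with 37.1% of all genes higher with DHT, and for 3 of the 4 genes. Ezrin was 1.87-fold higher with DHT (log2 0.90, SE 0.06, adjusted p = 1.15e-08), and moesin 1.48-fold (log2 0.56, SE 0.05, adjusted p = 3.11e-07). For both, all 3 DHT libraries were above all vehicle libraries, and the adjusted p stayed under 0.05 in every alternative.

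NF2 was lower with DHT by 0.12 on the log2 scale, at -0.12 (SE 0.05, adjusted p = 0.0339). DESeq2's Wald test gave an adjusted p of 0.101, and over all alternatives it ranged up to 0.287. It was 0.119 without DHT library 2, 0.0953 without vehicle library 1 and 0.0854 without vehicle library 3. RDX differed by 0.10 (SE 0.06, adjusted p = 0.184). With the replicate number as a block the estimate was 0.10 with an adjusted p of 0.0237, and without DHT library 2 or vehicle library 1 the p was 0.0213 or 0.0401. Neither gene reached a change of 10% in the fits of all 6 libraries.

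CD44, HAS2 and HAS3 were too low in LNCaP for a test between DHT and vehicle. The pooled CD44 counts were 80 with DHT and 32 with vehicle, a ratio of 2.28 (95% exact interval 1.497 to 3.55). Within libraries of the same number, taken as pairs in LNCaP, CD44 was 2.25-fold, 2.18-fold and 2.15-fold higher with DHT. The pairing of libraries 2 and 3 was not clear. The pooled ratio was 1.33 without DHT library 1, which gave 50 of the reads, and 3.74 without vehicle library 1. Without a filter on low counts CD44 was called, and with all 9 libraries in 1 fit it was not. HAS3 had 141 and 159 reads (ratio 0.809, interval 0.641 to 1.02), and 102 of the 141 were in DHT library 1. Without that library the ratio was 0.349 (interval 0.239 to 0.498). In libraries 1, 2 and 3 the ratio of DHT to vehicle was 1.13, 0.337 and 0.567. HAS2 had 7 and 2 reads (3.19, interval 0.608 to 31.5). As a percentage of the PC3 mean, CD44 was at 0.657%, 0.246% and 0.192% with DHT and 0.292%, 0.113% and 0.0894% with vehicle. The median of the 188 PC3-high genes, in the same order, was 0.616%, 0.154%, 0.118%, 0.327%, 0.107% and 0.138%. HAS3 was at 0.127% to 0.782% in these libraries. The part of this low level in the CD44 and synthase reads was not tested.

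**Figure D3:**
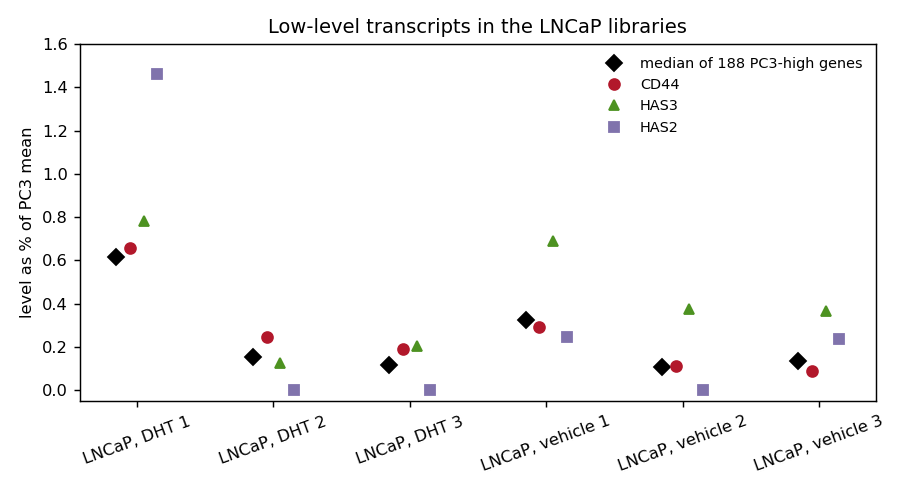
Level of CD44, HAS2 and HAS3 in each LNCaP library as a percentage of the PC3 mean, beside the median of 188 other genes that were high in PC3 and below 1% of it in LNCaP. The DHT library 1 is the highest for all 4, with CD44 at 0.657% and the median at 0.616%.

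Levels were compared between genes only per kilobase (RPKM, CPM per kilobase of all annotated exons). In PC3 the order was HAS3 (112 ± 11.1 RPKM), EZR (72.7 ± 5.22), MSN (48.0 ± 5.52), CD44 (34.1 ± 4.50), RDX (16.6 ± 1.53), NF2 (12.7 ± 1.80) and HAS2 (5.06 ± 0.507). No neighbours in that order overlapped between libraries. With DHT it was EZR (49.8 ± 4.30 RPKM), RDX (25.99 ± 2.11), NF2 (9.21 ± 0.450), MSN (7.995 ± 0.260), HAS3 (0.418 ± 0.401), CD44 (0.125 ± 0.0867) and HAS2 (0.0246 ± 0.0427), and the last 3 overlapped. With vehicle EZR (26.6 ± 0.585 RPKM) and RDX (24.3 ± 1.93) overlapped at the top, followed by NF2 (10.0049 ± 0.150) and MSN (5.42 ± 0.293). These orders depend on the length. Per kilobase of the longest coding transcript, MSN (133 ± 15.3 RPKM) was above EZR (77.8 ± 5.59) in PC3 and close to HAS3 (138 ± 13.6). MSN then also exceeded NF2 with DHT (22.2 ± 0.723 against 11.4 ± 0.555 RPKM) and with vehicle (15.0449 ± 0.813 against 12.3 ± 0.185), and RDX exceeded EZR with vehicle (47.2 ± 3.74 against 28.5 ± 0.627).

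The composition of the ERM set was not the same in the lines. Of the summed EZR, MSN and RDX level, moesin made up 35.0% ± 2.08 in PC3 but 9.59% ± 0.932 with DHT and 9.63% ± 0.860 with vehicle (SD, n = 3). Radixin made up 12.1% ± 0.181 in PC3, 31.0% ± 0.230 with DHT and 43.1% ± 1.81 with vehicle. Ezrin had the largest share in each group by this measure, at 53.0% ± 2.11, 59.4% ± 0.775 and 47.3% ± 1.15. The summed level was 137 ± 10.7 RPKM in PC3, 83.8 ± 6.27 with DHT and 56.4 ± 2.10 with vehicle.

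The leading linker depends on the length used, because MSN and RDX have long annotated exons of 11407 and 8518 nt against 3286 nt for EZR. Per kilobase of the longest coding transcript (4108, 4392 and 3068 nt), moesin had the largest share in PC3 (54.7%), ezrin with DHT (42.3%) and radixin with vehicle (51.9%). By either length moesin had a larger share in PC3 than in LNCaP, radixin a smaller one, and ezrin a larger share with DHT than with vehicle.

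**Figure D4:**
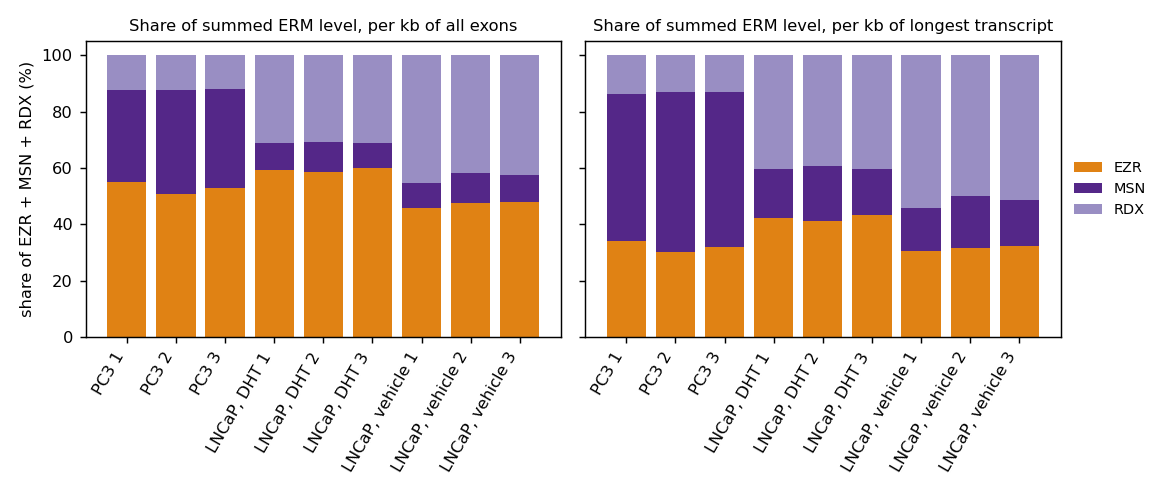
Share of EZR, MSN and RDX in their summed level in each library, in percent, per kilobase of all exons (left) and of the longest coding transcript (right). The moesin share is larger in the 3 PC3 libraries (mean 35.0% left, 54.7% right) than in LNCaP, and the radixin share is larger in LNCaP.

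HMMR-AS1 was not detected above the limit of 3 reads in any library. It lies on chromosome 5 (163483065 to 163494058, minus strand), and its 957 nt of exons share 113 nt with exons of HMMR on the plus strand, 11.8% of its length. It had 2, 1 and 1 reads in PC3, 0, 0 and 1 with DHT and 2, 0 and 0 with vehicle. A count of 3 corresponds to 0.117 to 0.172 CPM, so no difference between groups could be seen at this depth.

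On the opposite strand of the HMMR-AS1 exons, by contrast, there were 443, 414 and 224 reads in PC3, 165, 190 and 171 with DHT and 476, 478 and 477 with vehicle. Of all reads on either strand of this gene, 99.8% lay on that of HMMR. The stretch below is shown because it is the HMMR coding exon part that lies directly opposite HMMR-AS1 (hg38 chr5:163483065-163483172, plus strand, 108 bases). In the counts made without strand HMMR-AS1 stayed at 0 to 2 reads, and HMMR was lower in every library, at 787 to 2802 reads in place of 950 to 3268.
HMMR exon: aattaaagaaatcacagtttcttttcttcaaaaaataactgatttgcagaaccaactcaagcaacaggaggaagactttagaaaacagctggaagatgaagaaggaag

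HMMR itself was at 105, 118 and 63.4 CPM in PC3, 42.5, 57.0 and 57.9 CPM with DHT and 169, 176 and 166 CPM with vehicle. It was lower with DHT than with vehicle by a log2 fold change of -1.70 (SE 0.08, adjusted p = 8.84e-10). The opposite-strand reads were lowest with DHT and highest with vehicle, as was HMMR. These reads lie on the strand of HMMR and can be counted in it, so the shared order is not a separate observation.

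**Figure D5:**
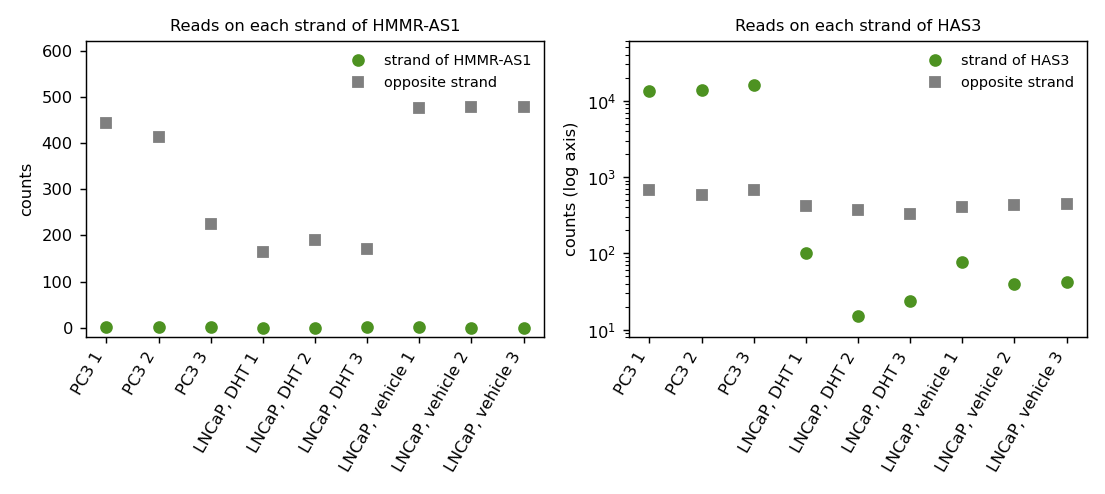
Reads on the strand of each gene and on the opposite strand in each of the 9 libraries, for HMMR-AS1 (linear axis) and HAS3 (log axis). HMMR-AS1 has at most 2 reads on its own strand, and HAS3 has more reads on its own strand than on the other in PC3 only.

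HAS3 was the other gene with many reads on the opposite strand, 325 to 680 per library or 9.06% of all its reads. In LNCaP these outnumbered the reads on its own strand (15 to 102). For the remaining 6 genes the opposite strand held at most 2.82% of reads. Of the 74-nt stretches of their transcripts, 5.67% in HAS3 (shared with CHTF8 and DERPC), 4.30% in HAS2 (HAS2-AS1) and at most 1.56% in CD44, EZR, MSN, RDX and NF2 also occurred elsewhere.

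In the gene lists that follow, some genes were above 3 CPM in every library of only 1 of the groups compared. Such genes were selected in part by their difference, and they are given by their levels with no test. Other genes of hyaluronan metabolism followed no common direction. Of 19, 10 were tested between PC3 and DHT-treated LNCaP, with 3 called higher in PC3 and 2 lower, and the median log2 difference was 0.04 (0.04 over all genes). All 3 higher genes and 1 of the lower ones passed the filter in 1 group only. The 5 calls became 8 without a filter and 1 with at least 10 counts in every library. HAPLN1, which links hyaluronan to proteoglycans, was at 10.5 ± 0.304 CPM in PC3 and at 0 in all LNCaP libraries. VCAN, a hyaluronan-binding proteoglycan, was at 4.74 ± 0.348 CPM in PC3 and at 0 with DHT. CEMIP, which takes part in hyaluronan breakdown, was at 6.54 ± 0.481 CPM in PC3, 0.573 ± 0.110 with DHT and 0.407 ± 0.127 with vehicle. The hyaluronidase HYAL1 was at 0.257 ± 0.0864 CPM in PC3, 5.78 ± 0.683 with DHT and 0.404 ± 0.0606 with vehicle.

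Against vehicle, 3 of 9 tested genes of that list were called higher in PC3 and 0 lower, all 3 through PC3 alone. These calls became 7 without a filter and 0 with at least 10 counts in every library. With DHT, 2 of 7 tested were called higher than with vehicle and 1 lower. One of the higher genes was HYAL1, which passed the filter through the DHT group alone. The other, CEMIP2, a cell surface hyaluronidase, rose by 1.25 on the log2 scale (SE 0.07, adjusted p = 2.69e-09). HMMR was the one that fell.

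For the hyaluronan list and all lists below, 46.0% of all genes were called against DHT, 24.0% higher and 22.1% lower in PC3. Against vehicle these shares were 43.2%, 22.2% and 21.0%. Between DHT and vehicle 14.0% were called, 6.54% higher and 7.49% lower with DHT. The median log2 difference over all genes was 0.04 against DHT, 0.03 against vehicle and -0.01 for DHT against vehicle. The median of the hyaluronan list was 0.38 between PC3 and vehicle and 0.34 between DHT and vehicle.

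Membrane proteins that bind the linkers were higher in PC3 where they were called. Of 15, 11 were tested and 7 called higher and 0 lower against DHT, with a median log2 difference of 1.15. The same numbers were called against vehicle, with a median of 1.83. In each case 63.6% were called, against 46.0% (DHT) and 43.2% (vehicle) over all genes. Of the 7, 3 passed the filter through PC3 alone in each comparison, and 4 of the 8 genes that passed in both groups were called. PODXL, the anti-adhesive sialomucin podocalyxin, differed by 3.11 (SE 0.24, adjusted p = 7.01e-06) against DHT. The 3 others are ICAM1, MPP1 and L1CAM. The adhesion receptor ICAM1 was at 35.5 ± 8.03 CPM in PC3, 2.91 ± 1.14 with DHT and 0.0857 ± 0.0780 with vehicle. MPP1, a scaffold protein of the red cell membrane, was at 12.6 CPM in PC3 and 0.0818 CPM with DHT. L1CAM, a neural adhesion molecule, was at 8.68 ± 3.71 CPM in PC3, 1.74 ± 0.162 with DHT and 0.123 ± 0.0301 with vehicle.

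Between DHT and vehicle 0 of 8 tested membrane partners were called by edgeR, and 1 by DESeq2. That gene was SLC9A3R2 (NHERF2, a scaffold that holds ERM proteins to membrane channels), named after its values were seen, at a log2 fold change of 0.99 (SE 0.05, adjusted p = 1.21e-09), at the edge of the 2-fold limit. It was past that limit without DHT library 2 (1.02) and without vehicle library 1 (1.03), without a filter (1.01) and with at least 10 counts in every library (1.0044). All 9 libraries in 1 fit called 2 other genes, ICAM1 (4.97, SE 0.64, adjusted p = 9.30e-05) and L1CAM (3.77, SE 0.59, adjusted p = 0.000357), both higher with DHT and let through the filter by PC3. Without a filter 4 were called, these 3 and CLIC5, which was lower with DHT (-1.97, SE 0.71, adjusted p = 0.0230).

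Kinases and regulators that act on the linkers showed 7 of 15 tested genes called higher in PC3 and 0 lower in both line comparisons. That was 46.7% called, near the 46.0% (DHT) and 43.2% (vehicle) over all genes. The medians were 0.81 against DHT and 0.85 against vehicle. STK10, a kinase of the ERM threonine, differed by 2.78 against DHT (SE 0.10, adjusted p = 1.16e-07) and 3.25 against vehicle (SE 0.08, adjusted p = 2.95e-08). MAP4K4, another kinase reported to act on them, was higher by 2.61 and 2.10 (SE 0.13 in both, adjusted p = 6.07e-07 and 2.19e-06). With DHT 1 of 15 was called, PRKCA (protein kinase C alpha), which rose from 14.9 ± 1.31 to 65.5 ± 3.68 CPM (log2 2.14, SE 0.07, adjusted p = 1.64e-11).

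Relatives with a FERM domain split in both directions. Of 17 tested, 9 were called higher and 3 lower in PC3 in both line comparisons (70.6% called), with medians of 2.60 and 1.28. Among the 11 that passed the filter in both groups against DHT, 3 were called higher and 3 lower. Against vehicle, 13 passed in both groups, with 5 called higher and 3 lower. Of the 9, 6 against DHT and 4 against vehicle passed the filter through PC3 alone. EPB41L3, a membrane skeleton protein, was one of these, at 109 CPM in PC3 and 0.543 CPM with DHT. FRMD6, a relative tied to the Hippo pathway, was another, at 361 ± 21.9 CPM in PC3 and 2.03 ± 0.575 with DHT. FERMT2 (kindlin 2), above 3 CPM in both groups, was higher in PC3 than with vehicle by 4.61 (SE 0.13, adjusted p = 4.55e-08). With DHT 2 of 13 were called lower and 0 higher, both through the vehicle group alone. TLN2 (talin 2) was at 1.88 CPM with DHT and 6.96 CPM with vehicle, and FRMD5 at 0.897 and 3.505 CPM.

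Genes that process CD44, by splicing its variable exons or by shedding it, all passed the filter in both line comparisons. Of 15 tested, 3 were called higher and 5 lower in PC3 than with DHT (53.3% called), and 3 and 4 against vehicle (46.7%). The medians were 0.17 and -0.53. ESRP1 and ESRP2, epithelial splicing factors, were lower in PC3 than with DHT at -2.62 (SE 0.16, adjusted p = 1.42e-06) and -2.58 (SE 0.10, adjusted p = 2.11e-07), as was the protease ADAM10, which can shed CD44, at -1.71 (SE 0.07, adjusted p = 2.32e-07). The membrane protease MMP14, which passed the filter through PC3 alone, was at 93.9 ± 7.98 CPM in PC3, 0.459 ± 0.4995 with DHT and 0.297 ± 0.158 with vehicle. With DHT 1 of 14 was called, HNRNPA1, a splicing repressor that was lower at -1.25 (SE 0.06, adjusted p = 5.35e-10). Gene counts do not show which CD44 isoforms were present.

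Among merlin's partners, 6 of 16 were called higher and 4 lower in PC3 in both line comparisons (62.5% called), with medians of 0.40 and 0.08. One gene called in each direction passed the filter in 1 group only, the spectrin SPTBN1 at 374 ± 10.3 CPM in PC3 and 2.11 ± 0.784 with DHT, and AMOT, a scaffold of the Hippo pathway, at 1.68 CPM in PC3 and 12.3 CPM with DHT. AMOTL1, its relative, was above 3 CPM in both groups and higher in PC3 than with DHT by 3.46 (SE 0.14, adjusted p = 2.05e-07). WWC1 (KIBRA), which acts with merlin in Hippo signalling, was lower in PC3 than with DHT at -3.21 (SE 0.08, adjusted p = 3.38e-08). It was higher with DHT than with vehicle at 1.58 (SE 0.05, adjusted p = 1.34e-11). Its level was 29.8 CPM in PC3, 277 CPM with DHT and 92.9 CPM with vehicle. With DHT the kinases PAK1 (-1.75, SE 0.11, adjusted p = 8.82e-09) and STK3 (-1.08, SE 0.06, adjusted p = 2.81e-09) were the 2 called lower of 15 tested. Between DHT and vehicle the medians were -0.12 for the membrane partners, 0.09 for the kinases, -0.27 for the FERM relatives, -0.15 for the CD44 processing genes and -0.16 for merlin's partners.

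The genes with the most similar profiles were found by the root mean square difference of centred log2 CPM over the 9 libraries among 12843 genes. For CD44 they were LGALS1 (0.213) and UBASH3B (0.260), and for HAS3 PHLDA1 (0.321), SCRN1 (0.414) and C6orf141 (0.416). For HAS2 they were XK (0.408), PGM5P2 (0.427) and IGFBP6 (0.510). The closest to MSN was CCDC82 (0.0767), followed by MYO1E and AMOTL2, and to EZR ERGIC2 (0.0818), followed by KAT2B and GNA12. RDX was closest to C19orf47 (0.0566), KIF21A and HARS1, and NF2 to MRPL48 (0.0467), MRPL58 and PITPNB. These are descriptions over libraries that fall into 3 groups.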

How the data were processed

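RNA-seq (74 nt, single-end, poly(A)) of 9 libraries was analysed, 3 per group as labelled. The labels name DHT as the androgen, and so does the study's supplement, while its main text names R1881. After adapter trimming, alignment to hg38 and removal of duplicates by molecular identifier, the authors deposited counts, whole reads per gene and library without normalization. The submitters' processing notes list cutadapt 4.1, STAR 2.7.7a and UMI-tools 1.1.2, and the study's methods give partly other versions. All 253944 table values equalled STAR's counts for the forward strand. Between 20.3% and 25.4% of reads were not counted on a gene, and 2.33% to 3.06% lay on the opposite strand.

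Genes with more than 3 CPM in at least 3 libraries of the fit were tested with edgeR 4.0.16 (R 4.3.3, TMM, quasi-likelihood F test), each comparison on its own 6 libraries, with Benjamini-Hochberg adjustment over all genes tested. A gene was called at an adjusted p under 0.05 and at least 2-fold. The study's likelihood ratio test included batches, which are not named, so no batch entered the fits. CPM use TMM over all 9 libraries, and RPKM the exon union of GENCODE 44. Pooled ratios have exact binomial intervals. Sequences come from GENCODE 44 and hg38. The edgeR quasi-likelihood and likelihood ratio fits were tested on simulated counts with known changes.

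Replicate numbers were checked as pairs. Deviations from group means over 11580 genes correlated between DHT and vehicle libraries of the same number with 0.62, 0.37 and 0.21. DHT library 3 correlated more with vehicle library 2 (0.35), and DHT library 2 with vehicle library 3 at 0.165. Library 1 of either group correlated negatively with libraries 2 and 3 of the other (-0.49 to -0.26). The numbers were taken to pair the LNCaP libraries, but only number 1 was clearly set apart. The alternatives were DESeq2 1.42.0 (size factors or Wald test), the likelihood ratio test, a replicate block, other filters, unstranded counts, all 9 libraries in 1 fit, no fold limit, another gene length and leaving out each library. Leaving out libraries for pooled ratios was added after seeing the data.

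The 8 genes and the lists were chosen with earlier results of these data known. Named besides them are up to 4 called genes with the largest change per list and comparison, of which the text gives a part, the 3 closest profiles per gene, and the markers. Some of the genes this rule covers are not reported here, while counts and sums over lists include them. A list gene that has 0 reads in a group is given by its levels.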

Additional observations from a re-analysis of the deposited data

Results flagged for a closer look

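Reads on the opposite strand are data outside the gene counts, and for 2 genes they were above the limit of 3 counts in every library. The lowest library had 325 such reads for HAS3 and 165 for HMMR-AS1. HAS3 is overlapped on that strand by CHTF8 and DERPC, and HMMR-AS1 by HMMR.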

How the results depend on the processing

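No fold change of the 8 genes that was called reversed under any alternative run. The number of the 8 genes called stayed at 4 (PC3 against DHT-treated LNCaP), 5 (PC3 against vehicle) and 0 (DHT against vehicle) with DESeq2 size factors, DESeq2's Wald test, the likelihood ratio test, unstranded counts, all 9 libraries in 1 fit and when any 1 library was left out. With the replicate number as a block it was 4, 5 and 0 as well. PC3 libraries did not pair with LNCaP libraries of the same number (correlations -0.0083, 0.023 and -0.067 with DHT, and 0.022, -0.064 and -0.027 with vehicle), and the block called 5756 genes between PC3 and DHT-treated LNCaP against 5773 without it. With an adjusted p alone, 7 of the 8 genes passed against DHT and 3 in the treatment comparison, and over all genes 10530, 10577 and 8763 passed, in the order above. Without a filter on low counts 9147, 8713 and 2941 genes were called, and 1 of the 8 (CD44) in the treatment comparison. A minimum of 10 counts in every library left 3 called against vehicle, since CD44 and HAS2 were not tested, and 3 against DHT, where HAS2 was not tested. Per kilobase of the longest coding transcript the ERM shares in PC3, with DHT and with vehicle were 32.05%, 42.3% and 31.5% for EZR, 54.7%, 17.7% and 16.6% for MSN and 13.2%, 40.0% and 51.9% for RDX, and unstranded counts gave 31.5% for RDX with DHT. With that length moesin also had a larger share with DHT than with vehicle, against 9.59% and 9.63% by all exons, and the leading linker changed in PC3 and with vehicle. Among the lists, the calls between PC3 and vehicle with at least 10 counts in every library were 4 membrane partners in place of 7. Leaving out a library kept the genes tested in the full comparison.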
